A study of Mus musculus with 14 samples.

Results

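The laminins and nidogens are the cross-linked core of the basement membrane, the thin sheet of extracellular matrix (ECM) that lies against cardiomyocytes, capillaries and smooth muscle. The 9 of their genes described here are Lama2, Lama3, Lama4, Lama5, Lamb1, Lamb2, Lamc1, Nid1 and Nid2. They were taken by name out of 19937 measured genes, and all 9 had a value on every array. The laminin chains Lama1, Lamb3 and Lamc3 were also measured and are given further below. The RNA came from left ventricles (LV) of male C57BL/6-background mice, wild type (WT) or systemically lacking the chemokine receptor CXCR5 (CXCR5-/-), that had undergone aortic banding (AB), a ligature round the ascending aorta that raises LV pressure, or a Sham operation without constriction. There were 3 WT Sham, 4 WT AB, 3 CXCR5-/- Sham and 4 CXCR5-/- AB arrays, each from 1 mouse, collected 3 weeks after surgery. The labels name no other allele and no agent in any group. The CXCR5-/- line was made in embryonic stem cells of a different mouse strain, with a neomycin resistance gene in place of the coding region, and was backcrossed for 8 generations to C57BL/6. WT mice were bought and were not stated to be littermates, so the CXCR5 allele, the DNA around it and the source of the mice cannot be told apart.

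A laminin is a cross-shaped trimer of 1 alpha, 1 beta and 1 gamma chain. The alpha chain carries the globular domains that bind integrins and dystroglycan on the cell surface, and it sets where a trimer is used. Laminin with the alpha 2 chain surrounds muscle fibers and is the form missing in merosin-deficient muscular dystrophy, whereas the alpha 4 and alpha 5 chains are typical of vessel walls. Nidogens bind the gamma 1 chain and bridge the laminin network to type IV collagen. The arrays measured mRNA and not protein or assembled trimers, and in whole tissue fewer cells of a type and less RNA per cell cannot be told apart.

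Values were log2 expression, so a difference of 1 is a doubling, and each gene was read by a single probe set, a group of oligonucleotides for 1 transcript. Levels of different genes were not compared, since probe sets differ in brightness. All arrays held heart muscle: the mean of 7 genes listed as ventricular cardiomyocyte genes lay between 12.1 and 12.4 on every array. By itself this mean does not tell ventricle from atrium. Atrial genes (Myl7, Sln and Myl4) averaged 8.77 and 8.09 on CXCR5-/- Sham arrays 1 and 2 and 8.35 on WT Sham array 1, against 6.16 to 7.67 on the other 11. The Cxcr5 probe set read 3.03 to 3.30 on WT arrays and 3.85 to 4.47 on arrays labelled CXCR5-/-, which goes against the direction of a deletion. Whether its oligonucleotides lie inside the replaced region is not given in the sources used here, so it neither checks nor overturns the labels.

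Lama5, the alpha 5 chain of vascular and epithelial basement membranes, was the member that changed with AB, and it fell in both genotypes. In WT mice it read 7.98, 8.28 and 8.38 on the Sham arrays and 7.66, 7.48, 7.76 and 7.85 on the AB arrays. In CXCR5-/- mice it read 7.89, 8.49 and 8.23 after Sham and 7.44, 7.25, 7.57 and 7.65 after AB. Within each genotype every AB array lay below every Sham array. Group means were 8.21 ± 0.21 (SD, n = 3) for WT Sham, 7.69 ± 0.16 (SD, n = 4) for WT AB, 8.20 ± 0.30 (SD, n = 3) for CXCR5-/- Sham and 7.48 ± 0.18 (SD, n = 4) for CXCR5-/- AB.

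The log2 change of Lama5 was -0.53 in WT mice (SE 0.14, 95% interval -0.82 to -0.23, limma adjusted p = 0.0250) and -0.73 in CXCR5-/- mice (SE 0.14, interval -1.03 to -0.43, limma adjusted p = 0.00184). As percent changes these were -30.5 (interval -43.5 to -14.6) and -39.6 (interval -50.9 to -25.7). An adjusted p here is the Benjamini-Hochberg value over all 19937 genes, and a gene passed below 0.05. The WT call depended on single mice: leaving out WT AB array 1 or 2, or WT Sham array 2 or 3, raised its adjusted p to between 0.0577 and 0.146, with changes of -0.52 to -0.44. The CXCR5-/- call held without any 1 array, at -0.88 to -0.59 with an adjusted p of at most 0.0188.

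Promoters of 300 bases, from 250 before to 50 after the start, were taken from RefSeq on GRCm38.p6 for the 5 members listed there, Lama2, Lama5, Lamb1, Lamb2 and Nid1. Those of Lama5, which fell, and Nid1, which had the highest positive change, are shown for contrast. Capitals mark the GC box, GGGCGG on the strand shown or CCGCCC for the other strand.
Lama5, chr2:180225810-180226109, minus strand: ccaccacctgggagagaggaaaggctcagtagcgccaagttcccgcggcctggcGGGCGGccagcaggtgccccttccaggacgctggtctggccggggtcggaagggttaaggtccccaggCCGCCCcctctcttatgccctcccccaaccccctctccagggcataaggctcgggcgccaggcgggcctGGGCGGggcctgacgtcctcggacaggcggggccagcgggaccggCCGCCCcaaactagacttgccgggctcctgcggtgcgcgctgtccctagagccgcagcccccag
Nid1, chr13:13437352-13437651, plus strand: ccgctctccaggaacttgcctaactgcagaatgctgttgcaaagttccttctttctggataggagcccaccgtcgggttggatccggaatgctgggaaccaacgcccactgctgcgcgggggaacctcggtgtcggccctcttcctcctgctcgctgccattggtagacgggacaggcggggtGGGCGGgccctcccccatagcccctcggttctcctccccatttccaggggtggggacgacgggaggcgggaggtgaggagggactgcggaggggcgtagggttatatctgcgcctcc
The Lama5 window held 4 GC boxes, 24 CpG pairs and 72.7% G and C, and the Nid1 window held 1, 20 and 64.7%. At least 1 GC box was present in 35.7% of all such promoters and at least 4 in 5.49%. Of the others, Lamb1 had 2 boxes, Lama2 1 and Lamb2 none, with 18, 1 and 4 CpG pairs against a median of 7 over all promoters. A match to these letters is a description of the window and not a binding site.

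**Figure D1:**
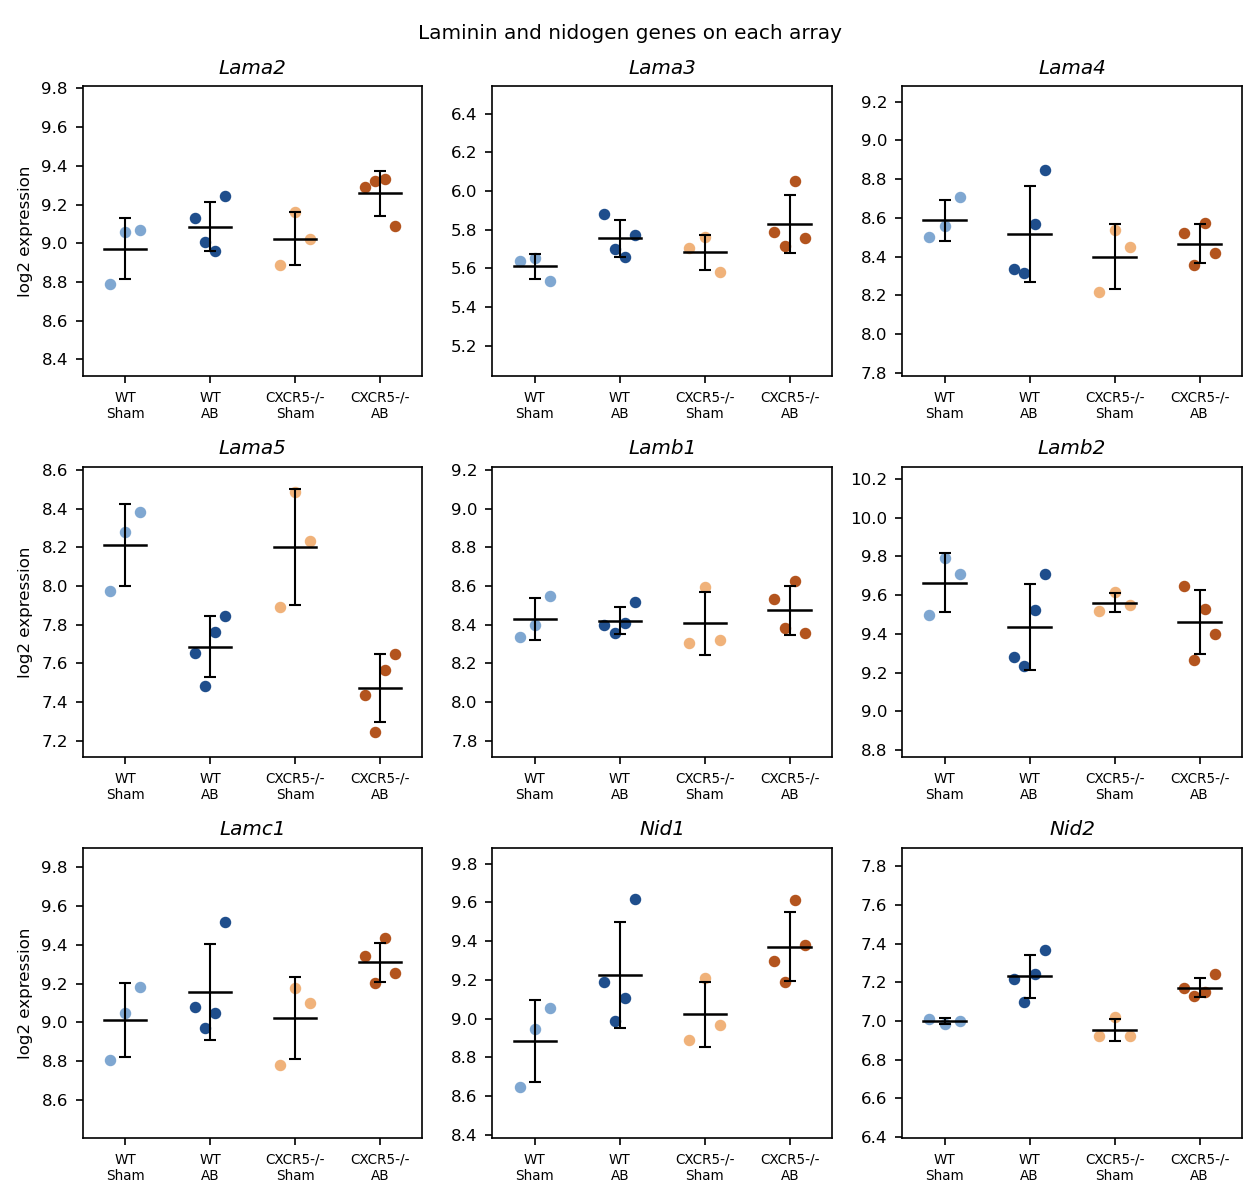
Log2 expression of the 9 laminin and nidogen genes, 1 panel a gene, for the 4 groups on the horizontal axis. Points are arrays, long bars group means and whiskers 1 SD, and all panels span the same log2 range. Lama5 AB arrays sit below the Sham arrays in both genotypes (means 8.21 and 7.69 in WT, 8.20 and 7.48 in CXCR5-/-), and the other genes move less.

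Of the 9 members, 0 rose and 1 fell in WT mice, where 5.1% of all genes rose and 4.22% fell. At an unadjusted p below 0.05, limma counted 2 higher and 1 lower. In CXCR5-/- mice 0 rose and 1 fell, against backgrounds of 8.28% and 5.86%, with 4 higher and 1 lower at an unadjusted p below 0.05. Beside these backgrounds, 1 of 9 is not a result about the members as a group. The median change of the members was 0.11 in WT and 0.15 in CXCR5-/- mice, beside 0.01 and -0.01 over all genes. Changes were above 0 for 5 members in WT and 7 in CXCR5-/- mice. The significance analysis of microarrays (SAM) called Lama5 lower in WT mice (q = 0.0185) and no member higher, beside 4.23% and 5.17% of all genes. In CXCR5-/- mice it called Lama5 lower (q = 0.00154, beside 8.61% of all genes) and Nid1 and Nid2 higher (q = 0.0373 and 0.0319, beside 11% of all genes). SAM with the mean in place of the median count of false calls was stricter. It called 0 members higher and 0 lower in WT mice, beside 2.14% and 1.42% of all genes, and Lama5 had q = 0.0736. In CXCR5-/- mice it called Lama5 lower (q = 0.0275) and 0 members higher, beside 4.74% and 7.01%.

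The other alpha chains did not pass. Lama2, the chain of the muscle fiber sheath, read 8.79, 9.06 and 9.07 on WT Sham arrays and 9.13, 9.0, 8.96 and 9.24 on WT AB arrays. After Sham it read 8.89, 9.16 and 9.02 in CXCR5-/- mice, and after AB 9.29, 9.32, 9.33 and 9.09. Groups overlapped in both genotypes, though 3 of the 4 CXCR5-/- AB arrays stood above all Sham arrays. The log2 change was 0.11 in WT (adjusted p = 0.621, limma) and 0.23 in CXCR5-/- mice (adjusted p = 0.172, limma).

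Lama4, the alpha chain of small vessels, ranged from 8.50 to 8.71 after Sham and 8.31 to 8.85 after AB in WT mice, and from 8.21 to 8.54 and 8.35 to 8.57 in CXCR5-/- mice. Its change was -0.07 in WT (interval -0.33 to 0.19) and 0.07 in CXCR5-/- mice (interval -0.19 to 0.33). The second value became -0.03 without CXCR5-/- Sham array 1, so it has no settled sign. Lama3, an alpha chain best known from skin, read 5.54 to 6.05 over all arrays. It changed by 0.14 in WT, where AB and Sham arrays did not overlap, and by 0.15 in CXCR5-/- mice, where they did, with limma adjusted p-values of 0.442 and 0.390.

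The beta chains and the shared gamma chain did not pass either. Lamb1 changed by -0.01 in WT (interval -0.22 to 0.20) and 0.07 in CXCR5-/- mice (interval -0.14 to 0.28), and its sign in WT mice turned under quantile normalization. Lamb2, the beta 2 chain enriched at neuromuscular junctions and in vessel walls, read 9.50, 9.79 and 9.71 after Sham and 9.28, 9.23, 9.52 and 9.71 after AB in WT mice. The change was -0.23 in WT (SE 0.12, adjusted p = 0.303, limma) and -0.10 in CXCR5-/- mice (SE 0.12, adjusted p = 0.683, limma). Lamc1, the gamma chain that nearly all trimers of the heart contain, read 8.78, 9.18 and 9.10 after Sham and 9.34, 9.20, 9.43 and 9.26 after AB in CXCR5-/- mice. These groups did not overlap, yet the change of 0.29 (SE 0.13) had an adjusted p of 0.186 by limma, and the WT change was 0.14 (adjusted p = 0.623, limma).

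Both nidogens were higher on average after AB in each genotype, without passing. Nid1 read 8.65, 8.95 and 9.06 on WT Sham and 9.19, 8.99, 9.11 and 9.62 on WT AB arrays. In CXCR5-/- mice it read 8.89, 9.21 and 8.97 after Sham and 9.30, 9.19, 9.61 and 9.38 after AB. A single array kept the groups from separating in either genotype, WT AB array 2 below the highest WT Sham array and CXCR5-/- AB array 2 just below the highest CXCR5-/- Sham array. The change was 0.34 in WT (SE 0.15, adjusted p = 0.174, limma) and 0.35 in CXCR5-/- mice (SE 0.15, adjusted p = 0.131, limma).

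Nid2 was separated in both genotypes. Its WT Sham arrays read 7.01, 6.98 and 7.0 and its WT AB arrays 7.22, 7.10, 7.24 and 7.37. CXCR5-/- Sham arrays read 6.92, 7.02 and 6.92 and CXCR5-/- AB arrays 7.17, 7.13, 7.15 and 7.24. Every AB array was thus above every Sham array of its genotype, with changes of 0.23 (SE 0.08, adjusted p = 0.0997, limma) and 0.22 (SE 0.08, adjusted p = 0.0961, limma). Non-overlap was common on these arrays: 3 of 9 members showed it in each genotype, against 17.1% of all genes in WT and 25.4% in CXCR5-/- mice.

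**Figure D2:**
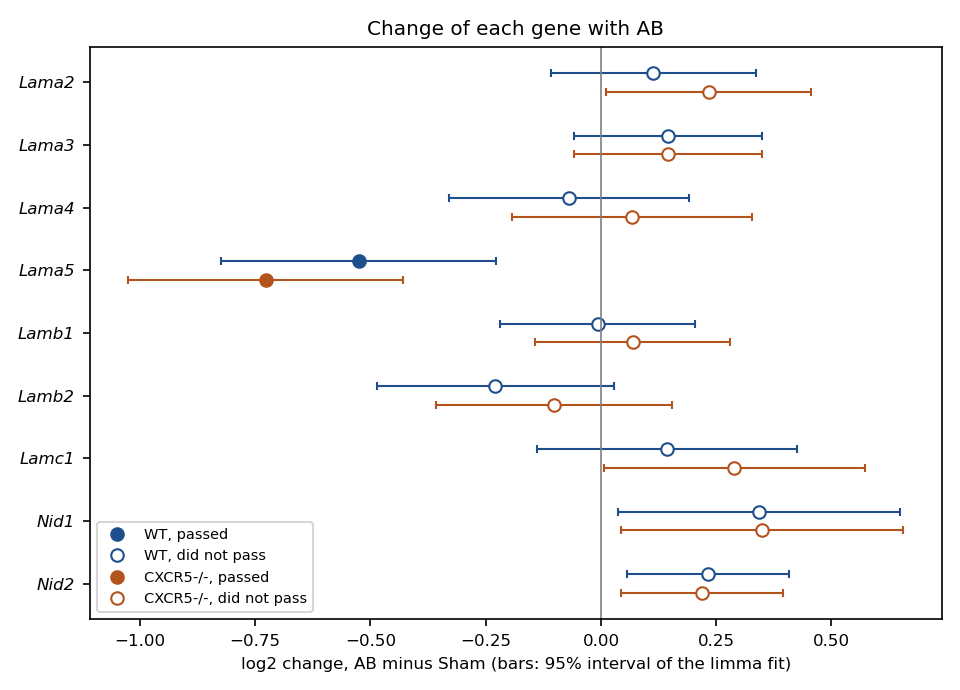
Log2 change with AB (AB minus Sham, horizontal axis) of each gene in WT (blue) and CXCR5-/- mice (orange), with the 95% interval of the limma fit and filled points where the adjusted p was below 0.05. Lama5, at -0.53 and -0.73, is filled in both genotypes, and the intervals of Nid1 and Nid2 lie above 0 although neither gene passed after adjustment over all genes.

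Genotype itself moved none of the 9 genes past the threshold. After AB, 0 of 9 differed between CXCR5-/- and WT mice by limma (0 at an unadjusted p below 0.05), where 0.0451% of all genes did. Values ran from -0.21 for Lama5 (interval -0.49 to 0.07, adjusted p = 0.928) to 0.17 for Lama2 (interval -0.03 to 0.38, adjusted p = 0.904), and groups of 0 members were separated, beside 3.12% of all genes. Same-numbered arrays gave Lama5 differences of -0.22, -0.24, -0.19 and -0.20, lower in CXCR5-/- mice in 4 of 4. With the replicate number as a block the adjusted p of Lama5 was 0.706 by limma. Same-numbered arrays are not known pairs, and over genes CXCR5-/- AB arrays 2, 3 and 4 each matched another WT AB number better. After Sham, 0 of 9 differed by limma (0 at an unadjusted p below 0.05) against 0.0401% of all genes, from -0.19 for Lama4 to 0.14 for Nid1. Groups of 0 members were separated there, beside 6.85% of all genes. Lama5 was at nearly the same mean in both Sham groups, with a difference of -0.01 and an interval of -0.33 to 0.31. SAM was not run on the genotype comparisons.

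Whether AB acted differently in the 2 genotypes was asked with the difference of the log2 changes, CXCR5-/- minus WT. It passed for 0 of 9 members and 0% of all genes by limma, and 0 members had an unadjusted p below 0.05. For Lama5 the difference was -0.20 (SE 0.20, interval -0.62 to 0.22), so the larger average fall in CXCR5-/- mice was within the spread between mice. The highest difference was 0.15 for Lamc1 (interval -0.25 to 0.55). Lamb2 lies on the same chromosome as Cxcr5, where DNA of the stem cell strain can remain after a backcross. It differed between genotypes by 0.02 after AB and -0.10 after Sham, and its responses differed by 0.13. Of the laminin receptors counted further below, Mcam and Dag1 lie on that chromosome too. After AB Mcam differed by -0.36 (unadjusted p = 0.0190, adjusted p = 0.698, limma) and Dag1 by 0.15 (adjusted p = 0.905, limma). After Sham the Mcam arrays did not overlap, at 7.61 to 8.01 in CXCR5-/- and 8.18 to 8.31 in WT mice, and those of Dag1 overlapped. The part of remaining strain DNA in these values was not tested. A p that misses the threshold does not show that the genotypes were alike, and over the 9 members the intervals reached from -0.62 to 0.55.

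To ask whether related chains moved unequally, the difference of 2 genes on the same array was compared between AB and Sham mice with exact two-sided permutation tests that shuffled arrays within each genotype, adjusted over the 4 pairs tested. Lama4 minus Lama5, the 2 vascular alpha chains, was 0.38 ± 0.13 (SD, n = 3) and 0.20 ± 0.14 (SD, n = 3) in WT and CXCR5-/- Sham mice. It was 0.83 ± 0.13 (SD, n = 4) and 0.99 ± 0.15 (SD, n = 4) after AB, with no overlap in either genotype. The rise with AB was 0.46 in WT and 0.79 in CXCR5-/- mice, 0.63 on average (exact permutation p = 0.00082, the smallest that 1225 arrangements can give; adjusted p = 0.0033). Lama4 itself changed by -0.07 in WT and 0.07 in CXCR5-/- mice. The rise of the pair thus restates the fall of Lama5, which had already passed on its own, and is no separate result. Without the 3 Sham arrays high in atrial genes it was 0.653, where the smallest adjusted p that the design allows is 0.0533.

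Lamb1 minus Lamb2, the beta chains, rose with AB by 0.22 in WT and 0.17 in CXCR5-/- mice (exact permutation p = 0.0204, adjusted p = 0.0408). Its groups overlapped in both genotypes, and it lost the call in 7 of the 14 fits that each left out 1 array. Lama4 minus Lama2, the vascular against the muscle alpha chain, changed by -0.18 and -0.17 and did not pass (exact permutation p = 0.0416, adjusted p = 0.0555). Nid1 minus Nid2 changed by 0.11 and 0.13 (exact permutation p = 0.216 before and after adjustment), so no unequal change of the nidogens was detectable with these mice.

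**Figure D3:**
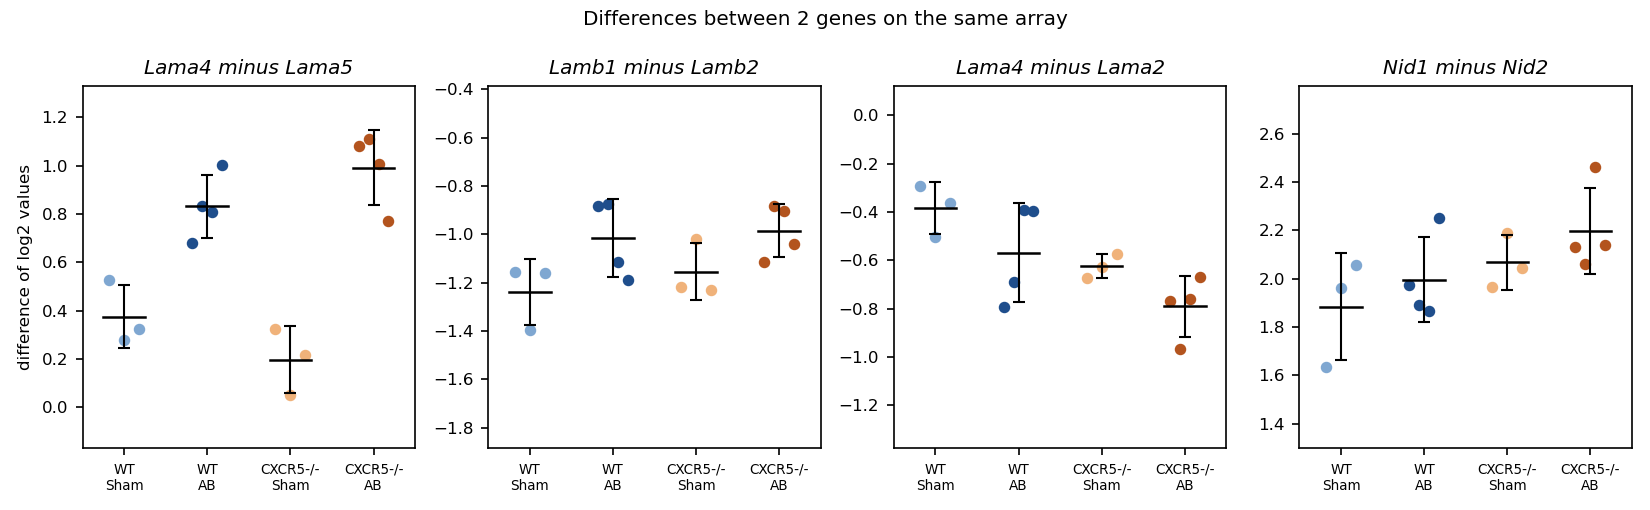
Within-array differences of log2 values for 4 pairs of genes (vertical axis), by group, with points for arrays, long bars for means and whiskers for 1 SD. Lama4 minus Lama5 is 0.05 to 0.52 on the Sham arrays and 0.68 to 1.11 on the AB arrays, and the other pairs overlap between Sham and AB within each genotype.

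Beyond the group means, the members tended to be high or low together on an array. In deviations from the group mean over the 14 arrays, all 36 pairs of members had a positive Pearson r, where 50.6% of all gene pairs did. Of these 36, 18 passed an exact permutation test within groups (Benjamini-Hochberg adjusted p below 0.05), 14 of them also by Spearman's rho. The lowest r that passed was 0.611, a value reached by 5.85% of all gene pairs. That share counts r alone, and member pairs above this r could miss the test, such as Lama4 with Nid2 (r = 0.713, exact permutation adjusted p = 0.0971). Both shares are over all 19937 genes, dim ones included, and not over genes as bright as the members. All 18 lay among the 28 pairs without Lama3, whose 8 pairs had r from 0.0835 to 0.468. Lama3 read 5.73 on average, near the array medians of 5.19 to 5.30 over all probe sets. The part of this low signal in its r values was not tested.

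The closest pair was Lamc1 with Nid1, the gamma chain and the protein that binds it, at r = 0.920 (exact permutation p = 0.000193, adjusted p = 0.00521) and rho = 0.899 (exact permutation p = 0.000145). Without the 2 arrays farthest from the median of Lamc1, r was 0.90. Lama4 with Lamc1 followed at r = 0.912 (exact permutation p = 0.000289, adjusted p = 0.00521), rho = 0.859 (exact permutation p = 0.00082) and r = 0.837 without the 2 farthest arrays. Lama5 deviated with Nid1 inside the groups although their group means moved in opposite directions with AB, at r = 0.786 (exact permutation p = 0.00212, adjusted p = 0.00955), rho = 0.83 (exact permutation p = 0.00174) and r = 0.766 without the 2 farthest. Arrays share RNA handling and scan, so genes on 1 array are not independent readings, and the part of RNA quality in this was not tested.

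In each group some arrays stood highest or lowest for most members. WT AB array 4 was the highest of its group for 8 of 9 members and WT AB array 2 the lowest for 7. Array 4 also had the highest endothelial and fibroblast marker means of the WT AB group (9.17 and 9.76), whose part in this was not tested. The lowest endothelial mean of that group was on array 1 (8.74) and not on array 2. In the other groups the array highest for most members also had the highest endothelial mean. These were CXCR5-/- AB array 3 (8.96), CXCR5-/- Sham array 2 (9.09) and WT Sham array 3 (9.12). CXCR5-/- Sham array 2 was highest for all 9, and CXCR5-/- Sham array 1 and WT Sham array 1 were each lowest for 7. Those 3 Sham arrays are the ones with high atrial genes. Among the WT AB arrays the atrial mean was lowest on array 2 (6.24) and highest on array 4 (7.54), as the members were. The CXCR5-/- AB arrays did not share this order. There the atrial mean was lowest on array 1 (6.16) and highest on array 4 (7.67), while array 2 was lowest for 7 members and array 3 highest for 6. The part of atrial tissue in this was not tested. Without the 3 Sham arrays Lama5 changed by -0.64 in WT mice (adjusted p = 0.0091, limma) and by -0.76 in CXCR5-/- mice (adjusted p = 0.0229, limma), the latter against a single Sham array assumed to vary like the others.

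**Figure D4:**
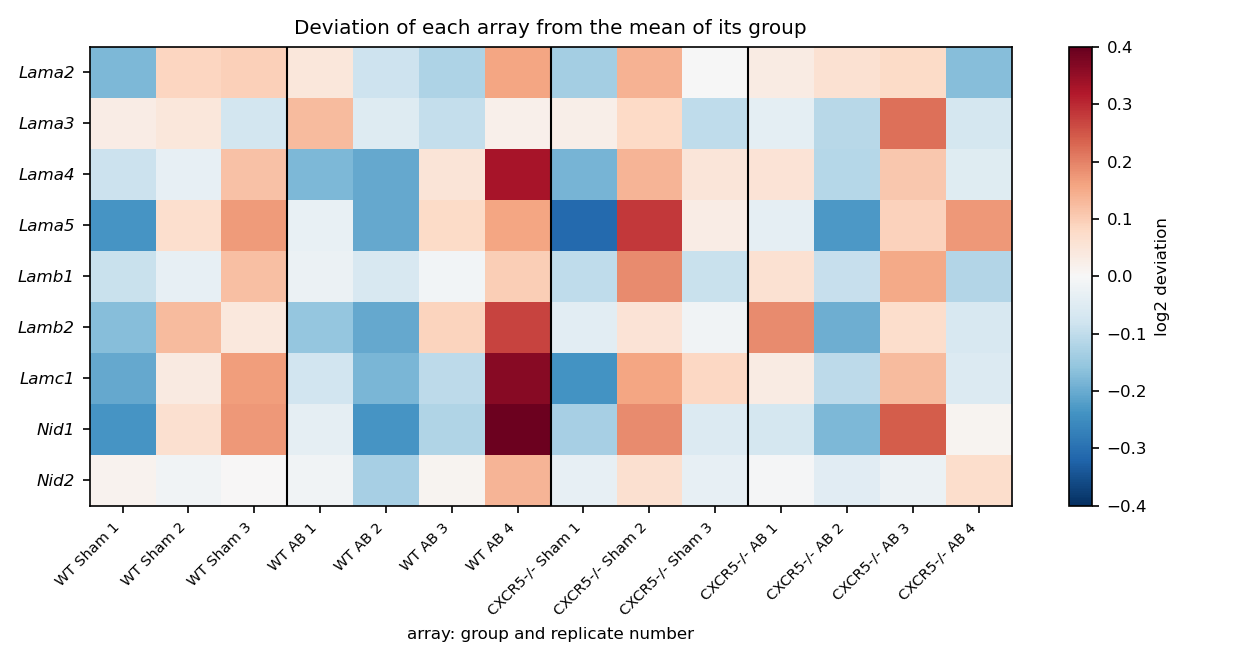
Deviation of each array from the mean of its group (color, log2 units) for the 9 genes (rows) on the 14 arrays (columns, by group and replicate number, black lines between groups). Columns tend to hold 1 color: WT AB array 4 is high for most genes and WT AB array 2 low. Lama3, whose signal is near the array medians, departs from the pattern.

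Outside the 9, the laminin chains Lama1, Lamb3 and Lamc3 were also measured. Lamb3, the beta chain that pairs with Lama3 in skin, fell by 0.32 on the log2 scale in CXCR5-/- mice (SE 0.11, adjusted p = 0.0485, limma), a call lost in 9 of the 14 fits that left out 1 array. Its WT change was -0.25 (adjusted p = 0.178, limma). Lama1 changed by -0.04 and 0.00 and Lamc3 by -0.07 and 0.02 in WT and CXCR5-/- mice, neither passing.

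Part of the remaining basement membrane genes rose with AB. Of 18 such genes, all measured, 4 rose and 0 fell by limma in WT mice, beside 5.1% and 4.22% of all genes. In CXCR5-/- mice 8 rose and 0 fell, beside 8.28% and 5.86%. In each genotype 1 was lower at an unadjusted p below 0.05. By limma 0 of the 18 passed between genotypes after AB, and 0 for the difference of the AB responses. Their median change was 0.19 in both genotypes, beside 0.11 and 0.15 for the laminins and nidogens. Col4a1 and Col4a2 encode the chains of the main type IV collagen network. In WT mice the log2 change of Col4a1 was 0.49 (adjusted p = 0.0149) and that of Col4a2 0.53 (adjusted p = 0.00422), both by limma. The values in CXCR5-/- mice were 0.50 (adjusted p = 0.00915) and 0.64 (adjusted p = 0.000574), with SEs of 0.12 for Col4a1 and 0.11 for Col4a2.

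Col15a1, which anchors the membrane to interstitial fibrils, had changes of 1.01 in WT and 1.09 in CXCR5-/- mice, each with an SE of 0.16 (adjusted p = 0.000655 and 0.000191, limma). Sparc, a secreted glycoprotein that binds type IV collagen, stood at 0.81 in WT and 1.04 in CXCR5-/- mice, each with an SE of 0.08 (adjusted p = 1.11e-05 and 4.34e-07, limma). Col4a3, Col4a4, Smoc1 and Smoc2, named after their values were seen, made up the 8 in CXCR5-/- mice. Without the 3 arrays high in atrial genes the counts were 3 in WT and 3 in CXCR5-/- mice, the latter with a single Sham array, and Col4a1 no longer passed in either genotype.

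**Figure D5:**
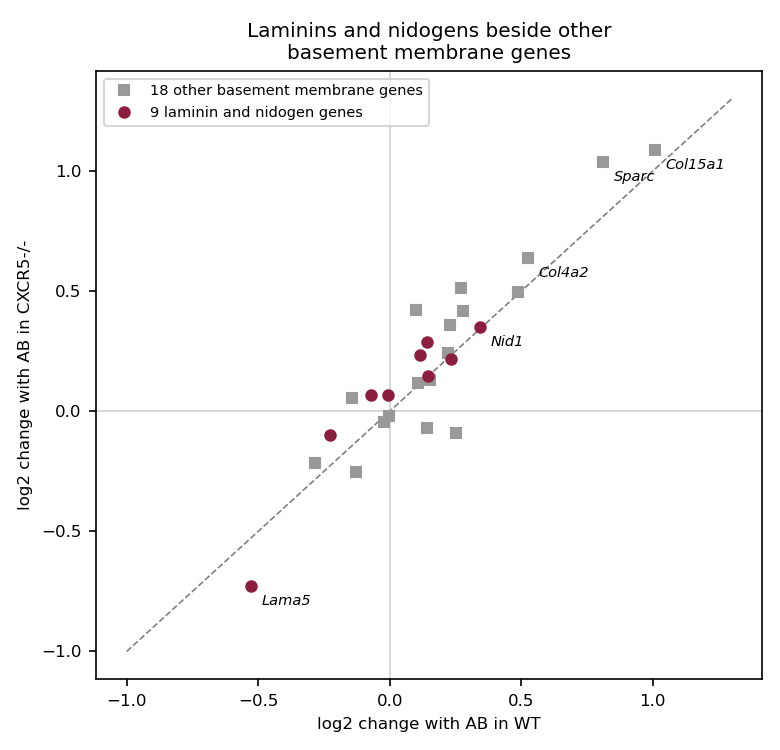
Log2 change with AB in WT (horizontal axis) against CXCR5-/- mice (vertical axis) for the 9 laminin and nidogen genes (red circles) and 18 other basement membrane genes (grey squares), with the dashed line of equal change. Both axes come from separate mice. Lama5 is alone at the lower left (-0.53, -0.73), Nid1 sits at 0.34 and 0.35, and Col15a1 and Sparc lie at the upper right.

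Among proteins that hold laminin at the cell surface, some of the dystrophin complex fell. Of 16 measured laminin receptors and linked proteins, 0 rose and 3 fell by limma in WT mice, beside 5.1% and 4.22% of all genes. In CXCR5-/- mice 0 rose and 4 fell, beside 8.28% and 5.86%. In either genotype 0 of the 16 were higher at an unadjusted p below 0.05 (limma). Their medians were -0.12 and 0.00. Sgca and Sgcb are sarcoglycans of the dystrophin complex, through which muscle holds laminin. Sgca changed by -0.52 in WT (adjusted p = 0.00579) and -0.62 in CXCR5-/- mice (adjusted p = 0.000996), with an SE of 0.11 in the limma fit. Sgcb changed by -0.47 (adjusted p = 0.00571) and -0.41 (adjusted p = 0.00933), with an SE of 0.10. Without the 3 arrays high in atrial genes Sgca no longer passed in either genotype, at -0.47 and -0.62, with a single CXCR5-/- Sham array left. The CXCR5-/- call of Sgcb was lost without CXCR5-/- Sham array 2 (-0.32, adjusted p = 0.0735, limma). Other members of the complex did not fall in this way. Dmd, dystrophin itself, changed by -0.14 and 0.03 and the sarcoglycan Sgcd by 0.17 and 0.13, neither passing.

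Itga7, the main laminin-binding integrin of muscle, changed by -0.47 and -0.50 (SE 0.14, adjusted p = 0.0499 and 0.0252, limma), and its WT call was lost in 12 of 14 fits that left out 1 array. Sspn, a further member of the sarcoglycan complex, changed by -0.30 and -0.33 (SE 0.10, adjusted p = 0.0640 and 0.0280, limma). The CXCR5-/- calls of Itga7 and Sspn were each lost in 4 of 14 such fits, with adjusted p up to 0.141 and 0.101, and when all probe sets were tested (0.0687 and 0.0550). Without the 3 arrays high in atrial genes, 2 receptors were called lower in WT and 0 in CXCR5-/- mice, the latter with a single Sham array.

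Dystroglycan itself, Dag1, is the laminin receptor of that complex and needs sugar chains to bind laminin. Dag1 changed by -0.09 in WT and -0.04 in CXCR5-/- mice and did not pass. Of 8 measured genes that build those sugar chains, 1 fell in each genotype, beside 4.22% and 5.86% of all genes. It was B4gat1, lower by 0.31 and 0.39 on the log2 scale (SE 0.09, adjusted p = 0.0413 and 0.00628, limma). The WT call of B4gat1 was lost in 10 of 14 fits that left out 1 array. The median changes of that list were -0.11 and -0.19.

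Cell type markers give the setting for these values. The mean of 6 endothelial genes was 8.97 to 9.12 in WT Sham and 8.74 to 9.17 in WT AB mice, and 8.81 to 9.09 and 8.70 to 8.96 in CXCR5-/- mice. By limma 0 of 6 passed in either genotype (0 in WT and 1 in CXCR5-/- mice at an unadjusted p below 0.05), with median changes of -0.13 and -0.10. Of 6 fibroblast genes, 3 rose in WT and 6 in CXCR5-/- mice by limma, beside 5.1% and 8.28% of all genes. Their mean went from 8.65 to 8.76 after Sham to 9.09 to 9.76 after AB in WT mice. In CXCR5-/- mice it went from 8.61 to 8.90 after Sham to 9.42 to 9.72 after AB. The mean of the 7 ventricular cardiomyocyte genes was lower on every AB array than on every Sham array of its genotype. In WT mice it went from 12.36 to 12.39 after Sham to 12.20 to 12.28 after AB. In CXCR5-/- mice it went from 12.35 to between 12.12 and 12.26. By limma 0 of the 7 fell in WT and 2 in CXCR5-/- mice, beside 4.22% and 5.86% of all genes. Not all 7 moved: Actc1 changed by 0.01 and 0.04 and Tnnt2 by -0.03 and -0.01 in WT and CXCR5-/- mice.

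The 5 leukocyte genes averaged 5.55 to 5.79 after Sham and 6.03 to 6.30 after AB in WT mice, and 5.54 to 5.59 and 6.06 to 6.27 in CXCR5-/- mice. By limma 2 and 3 of the 5 had risen, beside 5.1% and 8.28% of all genes. Means of 2 Schwann genes, from a list of 4, were lower after AB, at 5.28 to 5.39 against 5.04 to 5.14 in WT mice. In CXCR5-/- mice they were 5.36 to 5.50 against 4.97 to 5.29, and 0 of the 2 passed by limma in either genotype. Of 6 smooth muscle and pericyte genes 0 rose in WT and 1 in CXCR5-/- mice, and of 4 lymphatic endothelial genes 1 in each. These counts stand beside the same shares of all genes. Of 4 epicardial or mesothelial genes 0 passed (median changes 0.66 in WT and 0.51 in CXCR5-/- mice). Of 4 fat genes 0 passed (0.59 and 0.27). The part of cell composition in the changes of Lama5, the nidogens, type IV collagen or the receptors was not tested.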

How the data were processed

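Left ventricular RNA of 14 mice was hybridised to Affymetrix mouse Gene ST 1.0 arrays. The authors deposited log2 expression values, normalised by RMA per the labels, for 34760 probe sets with no replicates pooled. The settings of RMA and the probe layout are not given in the sources used here. Scanner files were not used, so background and depth could not be assessed, and the number of arrays limits the precision. Platform annotation gave 1 gene symbol to 21640 probe sets, several to 1321 and none to 11799. For each of 19937 genes the single-symbol probe set with the highest mean was used. Each member has 1 such probe set.

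One limma 3.58.1 (R 4.3.3) fit of the 4 group means, with 10 residual degrees of freedom, gave the 5 comparisons, adjusted by Benjamini-Hochberg over all genes. The test was checked on simulated data. The 2 AB comparisons use different mice, while the AB comparisons and the genotype comparisons share groups. Within-array differences and correlations were tested by exact permutation (Python 3.11.15, scipy 1.17.1, pandas 2.3.3). SAM, named without settings in the methods of the study, was run over all 35 arrangements. Its use of the median count of false calls was settled after results with the mean had been seen, and both are given.

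All 9 members are named. Of each further list, up to 4 genes with the smallest p in either AB comparison are named with values among those that passed, and 4 more basement membrane genes by name alone. Values of Sgcd, Dmd, Dag1, Mcam, Actc1 and Tnnt2, which did not pass, were added after they were seen. The members, lists and tests were chosen with earlier results of these data known. Array values correlated at 0.975 to 0.993 and no pair of arrays was a duplicate. Groups came from the labels, and replicate numbers are those of the titles. For CXCR5-/- against WT after AB, deviations of same-numbered arrays had r of 0.125, 0.220, 0.157 and 0.185 over genes. This meets the rule for pairing from the data alone, since the labels tie no number to a litter or day. For CXCR5-/- AB arrays 2, 3 and 4, however, a WT AB array of another number had a higher r, so pairing is not settled. In the other comparisons at least 1 r of same-numbered arrays was below 0.1. Alternatives were a trended robust prior, array weights, a filter at the 30th percentile, quantile normalization, median centring, other probe set rules, fewer groups, the replicate block, an atrial covariate and leaving out each array.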

Additional observations from a re-analysis of the deposited data

How the results depend on the processing

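Over 1625 alternative values of 66 results, Lama5 fell in all 25 limma alternatives in each genotype. Its call was never lost in CXCR5-/- mice. In WT mice it was lost in 5 of the 25: without any of 4 single arrays, and when all probe sets were tested (adjusted p = 0.0734). SAM on mean false calls also lost it in WT mice (q = 0.0736). Members called lower in WT mice were therefore 0 with all probe sets, 0 with SAM on mean false calls, 2 with array weights (Lamb2 at -0.33 joined, adjusted p = 0.0386) and 0 to 1 leaving out 1 array. Members called higher were 1 in WT mice with array weights (Nid2) and 2 in CXCR5-/- mice (Nid1 and Nid2) with array weights and with SAM on the median. The replicate block changed no member call in any comparison (Lama5 -0.58 in WT and -0.78 in CXCR5-/- mice).

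Lamb1 minus Lamb2 was 0.180 after quantile normalization (adjusted p = 0.0512), 0.196 by rank sum (0.0784), 0.253 without the 3 arrays high in atrial genes (0.08) and 0.156 to 0.229 leaving out 1 array. Lama4 minus Lama2 ran from -0.204 to -0.137 leaving out 1 array and passed in 3 such fits. Lama4 minus Lama5 was 0.653 without the 3 arrays, at the smallest adjusted p that 75 arrangements allow, 0.0533. Alternatives with the 3 arrays left out, with mean false calls and on the further lists were chosen after seeing the data.

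Signs turned for values near 0: Lamb1 in WT mice (0.0039 with quantile normalization, -0.052 to 0.053 leaving out 1 array), Lama4 in CXCR5-/- mice (-0.025 to 0.136), Lamb2 between genotypes after AB (-0.044 to 0.114), Lama5 between genotypes after Sham (0.0089 with quantile normalization, 0.019 with the atrial covariate, -0.151 to 0.146 leaving out 1 array) and Nid1 there (-0.034 without the 3 arrays). Further basement membrane genes higher in CXCR5-/- mice numbered 5 to 8 leaving out 1 array (5 without CXCR5-/- Sham array 2 or 3) and 3 without the 3 arrays. Receptors lower there numbered 2 with all probe sets, 1 to 5 leaving out 1 array (1 without CXCR5-/- Sham array 2, 2 without CXCR5-/- AB array 2) and 0 without the 3 arrays. Beyond construction (fewer arrays or more tests), the cause of these changes was not tested. Groups of 3 or 4 mice and an unknown signal over background limit what could be detected.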

Other observations

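Over the 14 arrays, the 2 genes whose values lay closest to those of Lama5 were Ppm1l (r = 0.976) and Pigo (r = 0.973), given as a description over arrays that include both surgeries and both genotypes. Counted from the highest rise over 19937 genes, the change of Lama5 with AB stood at place 19473 in WT and 19720 in CXCR5-/- mice.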
